A study of Mus musculus with 12 samples.

Results

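The genes described here are named for respiratory complex I, and most encode its subunits or its dedicated assembly factors. They are the protein-coding genes of the deposited count table whose symbol starts with Nduf: 46 of the 54532 genes in the table, 22046 of which are protein-coding. Of the 46, 38 are subunit genes (Ndufa, Ndufb, Ndufc, Ndufs, Ndufv and Ndufab1) and 8 are assembly factor genes (Ndufaf1 to Ndufaf8). All 46 passed the filter on low counts and were among the 16164 genes tested. RNA sequencing was done on 12 tumours of B16F10, a mouse melanoma line, grown in the skin of male mice of 8 to 12 weeks. In the 6 iKO libraries the host was Trex1 fl/fl-R26CreERT2-ki/wt, and in the 6 Ctrl libraries it was Trex1 wt/fl-R26CreERT2-ki/wt. The tumour cells were wild type in both groups. Trex1 encodes a DNA exonuclease that degrades cytosolic DNA, and R26CreERT2 is a Cre recombinase that tamoxifen activates and that is made in most host cells. Hosts of both groups carried the Cre allele and at least 1 floxed Trex1 allele, and both were given tamoxifen, at 1 mg daily on 3 days in a row starting on day 5 after implantation. Tumours were taken on day 14, and cells were sorted as negative for CD45, carried by leukocytes, and for CD31, carried by endothelium. The protocol joins these markers with "or" where the sample label lists both. The labels do not tie libraries to mice, and both legs of a mouse were injected, so the p-values below measure the spread between libraries, which may include tumours of 1 mouse.

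Complex I, the NADH:ubiquinone oxidoreductase, is the entry point of electrons from NADH into the respiratory chain of mitochondria. Its matrix arm oxidises NADH and passes the electrons along iron-sulfur clusters to ubiquinone, and its membrane arm pumps protons. Core subunits carry out catalysis, accessory subunits surround and stabilise them, and assembly factors build the enzyme without remaining in it. The core of the membrane arm is encoded by mitochondrial DNA, while all Nduf genes are nuclear.

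The Nduf promoters show how this scattered nuclear gene set is laid out. The 46 genes lie on 17 chromosomes, 2 of them on X. RefSeq windows of 300 bases (GRCm38.p6, 250 bases before to 50 after the start of transcription) were at hand for 40 of the 46 genes, as 42 windows. Both strands were searched for short letters at the centre of sites linked to nuclear genes for mitochondria. The letters GCATGCG, the centre of the NRF1 palindrome, were in 5 of the 42 windows (11.9%), against 3.58% of 32851 windows of all genes. The letters AGATGGC, the centre of the YY1 site, were in 9 windows (21.4%), against 6.40% of all. Each gene with a match is shown as 30 bases on its own strand, with the matched letters in capitals, since these 2 motifs had the highest ratio of the Nduf share to the share of all windows among the 6 searched. Their 7 letters were chosen after the same windows had been searched with longer forms of both motifs, which fewer windows held. The NRF1 letters lay in 3 subunit and 2 assembly factor genes, on both sides of the start.
Ndufa11 (chr17:56717692-56717721, plus strand): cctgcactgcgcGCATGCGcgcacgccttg
Ndufa6 (chr15:82354357-82354386, minus strand): ttccgcggtagaGCATGCGcattgcagagc
Ndufa8 (chr2:36049329-36049358, minus strand): gtcgctggagacGCATGCGcagatggtacc
Ndufaf4 (chr4:24897960-24897989, plus strand): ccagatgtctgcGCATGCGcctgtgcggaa
Ndufaf5 (chr2:140170652-140170681, plus strand): agtcccgttggcGCATGCGcctaatagaaa
The YY1 letters lay in 8 subunit genes and 1 assembly factor gene.
Ndufa3 (chr7:3617384-3617413, plus strand): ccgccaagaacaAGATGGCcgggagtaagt
Ndufa9 (chr6:126849097-126849126, minus strand): cattgtgggagaAGATGGCggccgccgtcc
Ndufab1 (chr7:122102001-122102030, minus strand): gtgtttagggttAGATGGCatttgtgcagt
Ndufaf8 (chr11:120098933-120098962, plus strand): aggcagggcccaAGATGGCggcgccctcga
Ndufb8 (chr19:44555393-44555422, minus strand): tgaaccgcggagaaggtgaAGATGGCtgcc
Ndufc1 (chr3:51408915-51408944, minus strand): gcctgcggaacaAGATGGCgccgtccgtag
Ndufs4 (chr13:114388045-114388074, minus strand): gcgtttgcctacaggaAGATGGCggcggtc
Ndufs6 (chr13:73328433-73328462, minus strand): aagggtcaccggcaAGATGGCggcggtgct
Ndufs7 (chr10:80249462-80249491, plus strand): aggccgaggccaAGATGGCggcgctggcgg
All 9 YY1 matches shown ran in the direction of the gene. Only the first match found is shown per gene, and the gene's own strand was searched first. In all but Ndufab1 the matches lay just after the start, with their first base at positions 12 to 40 counted from the RefSeq start. For 31 of the 42 windows the first 40 bases after that start were found in a GENCODE transcript of the gene. The letters AGATGGC contain ATG, the letters of a start codon, and whether these matches are start codons was not tested. For the other letters the shares were closer in ratio. The ETS core CCGGAAG was in 14.3% of the Nduf windows and 8.86% of all, the SP1 letters GGGCGG in 52.4% and 35.7%, CCAAT in 33.3% and 37.4%, and TATAAA in 11.9% and 13.6%. A match is a description of the sequence, and no binding was measured.

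Each library held 29810000 to 35520000 counts in iKO tumours and 34340000 to 45830000 counts in Ctrl tumours. Trex1 itself had 0 counts in all 12 libraries, so the host genotype could not be checked on it. Cell type markers differed between the groups. The 10 leukocyte markers, among them Ptprc (CD45), were all higher in iKO, with summed levels of 187 to 1971 CPM in iKO and 66.6 to 226 CPM in Ctrl (CPM, counts scaled for the depth of each library, with edgeR's TMM factors). Of 8 pigment cell markers, which the melanoma cells express, 7 were lower in iKO, with sums of 15730 to 22570 CPM in iKO and 22670 to 23060 CPM in Ctrl. iKO 1, at 187 CPM of leukocyte markers and 22570 CPM of pigment markers, lay closest to Ctrl, and Ctrl 5, at 226 CPM of leukocyte markers, lay apart from the other Ctrl libraries. Xist, a transcript of female cells, reached 219 CPM in iKO 2 and 117 CPM in iKO 3, although the hosts are labelled male. It also stood at 8.39 CPM in iKO 4 and 1.18 CPM in iKO 5, against at most 0.501 CPM in the remaining libraries. In such bulk libraries, fewer cells of a type and less RNA per cell cannot be told apart.

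Most Nduf transcripts were lower in iKO tumours, at a median fold of 0.746 for subunits and 0.751 for assembly factors. Of the 38 subunit genes, 35 fell, 0 rose and 3 did not pass the test. Without Ndufa4 and Ndufa4l2, which carry subunit names and are described below, 34 of 36 fell. Of the 8 assembly factor genes, 7 fell, 0 rose and 1 did not pass. The background in the same test (edgeR quasi-likelihood, Benjamini-Hochberg adjusted p under 0.05) was 21.4% of all tested genes lower and 25.0% higher. All iKO libraries lay below all Ctrl libraries for 22 subunit genes and 3 assembly factor genes, against 11.1% of all tested genes. The median log2 fold change, iKO over Ctrl, was -0.42 over subunits and -0.41 over assembly factors, against 0.02 over all tested genes. These directions hold for scaling over all genes. When libraries were instead scaled to the pigment cell markers, an alternative added after the data were seen, 2 subunit genes were lower, 1 higher, and 1 assembly factor gene was lower. That scaling moved the median of all tested genes by 0.36 on the log2 scale. Relative to that median, the subunits stood at -0.44 with the main scaling and at -0.45 with pigment scaling. A change of scaling moves all genes by nearly the same amount, so this distance was bound to stay and tests nothing.

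**Figure D1:**
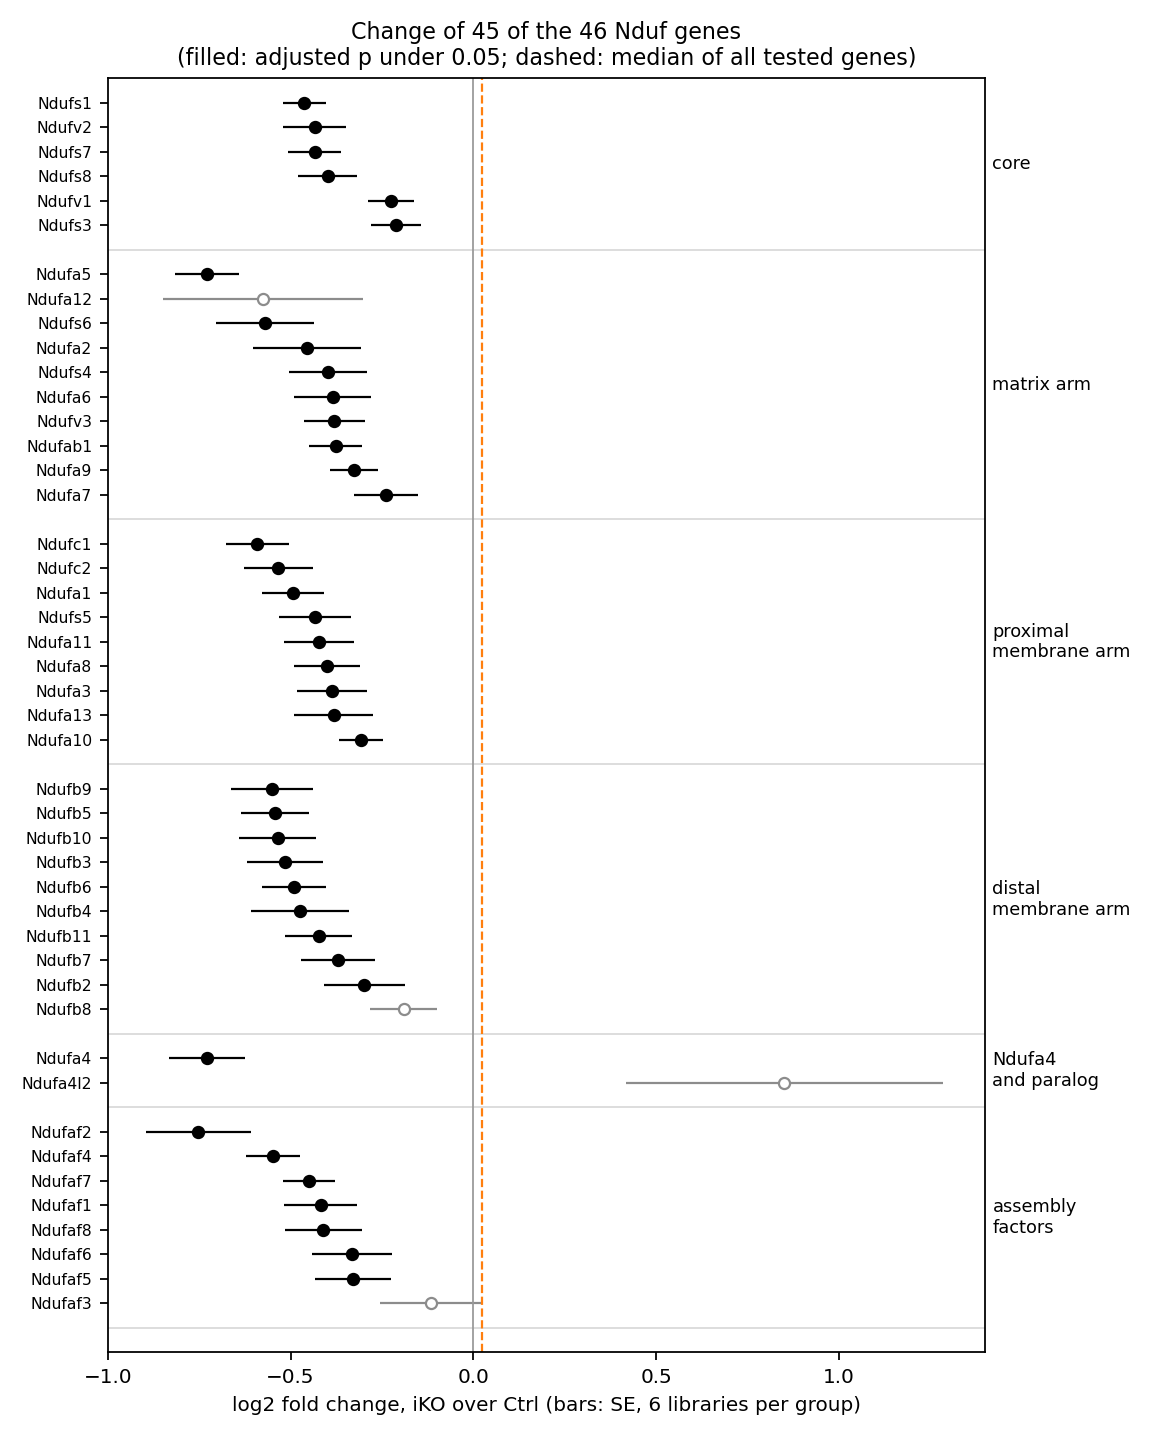
Fitted log2 fold change (iKO over Ctrl, with SE) of 45 of the 46 Nduf genes on the horizontal axis, by role, with filled points for adjusted p under 0.05 and a dashed line at the median of all tested genes. The fitted changes lie below 0 for all genes drawn but Ndufa4l2; scaled to pigment cell markers, 34 of the 46 genes lie below 0 and 12 above.

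With the main scaling, the summed transcripts of the 38 subunit genes, Ndufa4 and Ndufa4l2 included, kept the groups apart in every library. The 38 subunits together came to 2894, 2690, 2700, 2388, 2920 and 3056 CPM in iKO 1 to 6, against 3409, 3424, 3610, 4066, 4411 and 3522 CPM in Ctrl 1 to 6. The highest iKO library stayed below the lowest Ctrl library. Per 1000 CPM of pigment markers the subunit sums overlapped, at 128.2 to 167.5 CPM in iKO and 148.5 to 194.5 CPM in Ctrl. Within iKO, library 4 was the lowest for 30 of the 38 subunits and library 6 the highest for 22. Within Ctrl, library 5 was the highest for 32 and library 1 the lowest for 19. Libraries of 1 group thus also differed in many subunits at once. Assembly factors summed to 145, 139, 144, 125, 142 and 144 CPM in iKO 1 to 6, against 178, 185, 185, 204, 212 and 184 CPM in Ctrl 1 to 6, again without overlap. Per 1000 CPM of pigment markers the assembly factor sums overlapped too, at 6.40 to 8.64 CPM in iKO and 7.81 to 9.35 CPM in Ctrl.

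**Figure D2:**
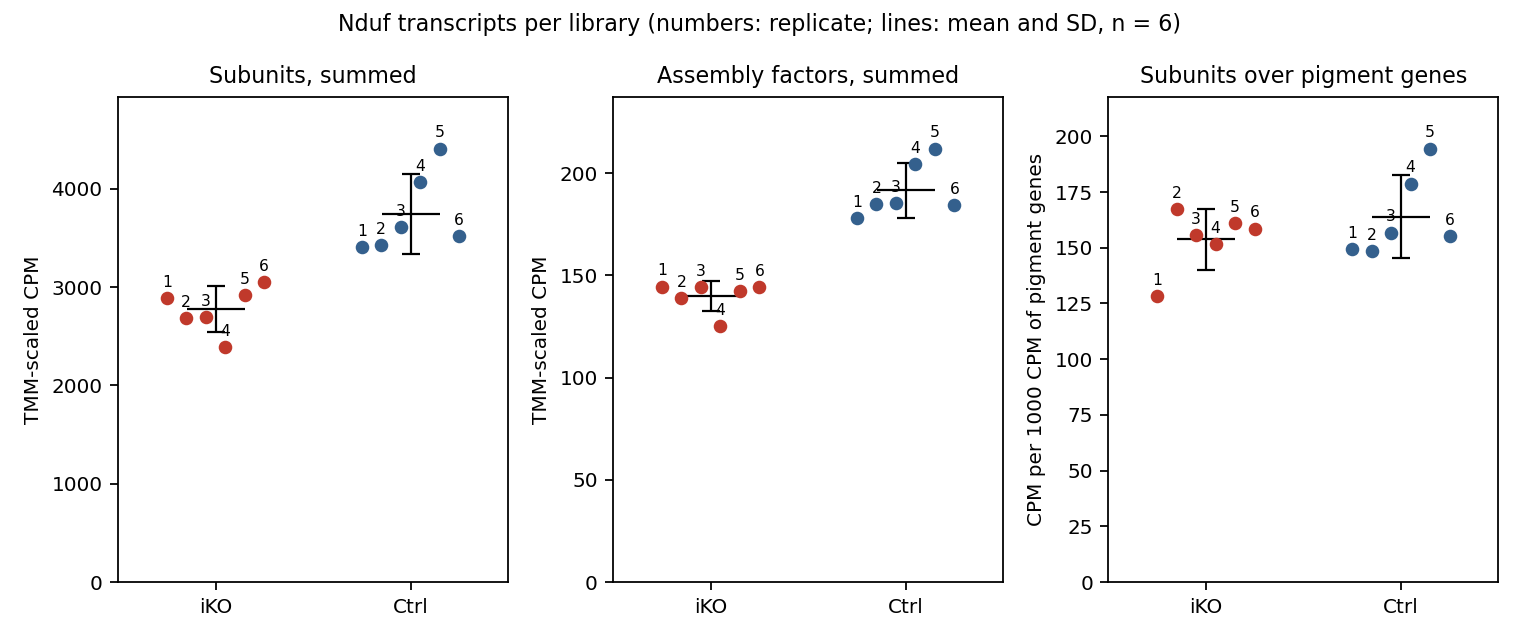
Summed TMM-scaled CPM of the 38 subunits (left), of the 8 assembly factors (middle) and of the subunits per 1000 CPM of 8 pigment cell markers (right), 1 point per library with the replicate number, and lines for mean and SD (n = 6). The groups are apart in the left and middle panels, with subunit sums of 2388 to 3056 CPM in iKO and 3409 to 4411 CPM in Ctrl, and they overlap in the right panel at 128 to 168 in iKO and 148 to 194 in Ctrl. On the scale of the right panel the assembly factors, not drawn, overlap too, at 6.40 to 8.64 in iKO and 7.81 to 9.35 in Ctrl.

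All 7 nuclear core subunits, which hold the flavin and the iron-sulfur clusters, fell in iKO, with a median log2 fold change of -0.40. Ndufs1, the largest core subunit and the carrier of several iron-sulfur clusters (chr1:63143596-63176833, mm10), had 159.9, 177 and 204 CPM as lowest, median and highest in iKO, against 241, 248 and 252.5 CPM in Ctrl. The groups were apart by a wide margin, with more spread in iKO (179.6 ± 15.7 CPM, SD, n = 6) than in Ctrl (248 ± 5.09 CPM, SD, n = 6). Its log2 fold change was -0.46 (SE 0.06, adjusted p = 4.41e-05). Ndufs7, an iron-sulfur subunit next to the ubiquinone site, had 52.5, 53.9 and 61.9 CPM in iKO, against 66.7, 74.1 and 89.3 CPM in Ctrl (log2 fold change -0.43, SE 0.07, adjusted p = 0.000349). Ndufv2, the partner of the NADH-binding subunit, had 97.5, 118 and 129.8 CPM in iKO, against 133, 151 and 176 CPM in Ctrl (log2 fold change -0.43, SE 0.09, adjusted p = 0.00104). No iKO library reached a Ctrl library for either gene. Other core genes fell less or alike. Ndufs8, also beside the ubiquinone site, stood at -0.40. The smallest changes among the core were those of Ndufv1, which binds NADH and the flavin, at -0.22, and of Ndufs3, at -0.21, and for both the groups overlapped. Ndufs3 lost its call without Ctrl 3, Ctrl 4 or Ctrl 5 (adjusted p = 0.0539, 0.069 and 0.0725), and 39.7% of the 50-base words of its main transcript recur elsewhere in the annotated transcripts.

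Of the 10 accessory subunits of the matrix arm, 9 fell, with a median of -0.39. Ndufa5, a small subunit bound to the matrix arm (chr6:24518666-24528013), changed most among them. It had 53.2, 60.7 and 68.7 CPM in iKO, against 90.5, 95.8 and 119 CPM in Ctrl. All iKO libraries were below all Ctrl libraries, and the log2 fold change was -0.73 (SE 0.09, adjusted p = 2.94e-05). Ndufa5 and Ndufa4 were the 2 members called lower under all 25 alternative settings, pigment scaling and removal of the length trend included. Ndufab1, the mitochondrial acyl carrier protein, which also serves fatty acid synthesis, had 38.3, 40.2 and 44.1 CPM in iKO, against 46.2, 51.3 and 60.2 CPM in Ctrl (log2 fold change -0.38, SE 0.07, adjusted p = 0.000966). Ndufa9, which stabilises the junction of the 2 arms, had 106, 125 and 132 CPM in iKO, against 141, 152 and 170.3 CPM in Ctrl (log2 fold change -0.33, SE 0.07, adjusted p = 0.00127). Both were without overlap, though Ndufa9 stood at 0.028 when scaled to pigment markers. Ndufs6, Ndufa2, Ndufs4, Ndufa6, Ndufv3 and Ndufa7 also fell, with log2 fold changes of -0.57, -0.45, -0.40, -0.39, -0.38 and -0.24. The call of Ndufa2 was lost without Ctrl 3, Ctrl 4 or iKO 4 (adjusted p up to 0.0539), and that of Ndufa7 without Ctrl 4, Ctrl 5 or any 1 of iKO 2 to 5 (adjusted p up to 0.124).

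Ndufa12, which occupies the place that Ndufaf2 holds during assembly, was the matrix arm gene that did not pass, and it is named for that reason after its values were seen. Its level was 32.1, 31.5, 28.8, 37.3, 53.6 and 61.3 CPM in iKO 1 to 6, against 73.7, 36.4, 41.4, 70.3, 93.2 and 49.7 CPM in Ctrl 1 to 6. Both groups held libraries above 50 CPM and libraries below 40 CPM. Its coefficient of variation was 33.0% in iKO and 36.1% in Ctrl, where the other 36 subunits apart from Ndufa4l2 ranged over 6.34% to 18.6% in iKO and 2.05% to 23.8% in Ctrl. The log2 fold change was -0.58 (SE 0.27, adjusted p = 0.107), larger in size than the median of the subunits but not distinguished from 0. Without iKO 6 it passed, at -0.73 (adjusted p = 0.0457). Of the 50-base words of its main transcript, 26.2% recur elsewhere, mostly in the processed pseudogene Gm15920.

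All 9 accessory subunits of the proximal membrane arm fell, with a median of -0.42. Ndufc1, a short membrane subunit, had 31.3, 37.3 and 40.1 CPM in iKO, against 46.7, 53.1 and 66.4 CPM in Ctrl (log2 fold change -0.59, SE 0.09, adjusted p = 0.000137). Ndufc2, its partner in the membrane, had 77.9, 97.8 and 103 CPM in iKO, against 118, 128.5 and 162 CPM in Ctrl (log2 fold change -0.53, SE 0.09, adjusted p = 0.000514). Ndufa1, an X-linked membrane subunit, had 37.1, 43.2 and 47.6 CPM in iKO, against 51.3, 59.1 and 71.8 CPM in Ctrl (log2 fold change -0.49, SE 0.09, adjusted p = 0.000443). Each of the 3 had every iKO library below every Ctrl library. Ndufs5, Ndufa11, Ndufa8, Ndufa3, Ndufa13 and Ndufa10 fell too, with log2 fold changes of -0.43, -0.42, -0.40, -0.39, -0.38 and -0.31. Ndufa13, also known as GRIM-19, shares 30.0% of its exon bases with Tssk6 on the other strand, and the libraries carry no strand.

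Among the 10 distal membrane arm subunits, all of the Ndufb family, 9 fell and the median was -0.48. Ndufb5 had 47.3, 57.6 and 66.5 CPM in iKO, against 73.0, 79.5 and 100.0 CPM in Ctrl (log2 fold change -0.54, SE 0.09, adjusted p = 0.000406). Ndufb6 had 36.1, 42.5 and 46.2 CPM in iKO, against 51.9, 57.5 and 68.6 CPM in Ctrl (log2 fold change -0.49, SE 0.09, adjusted p = 0.000561). Ndufb10, which carries disulfide bonds on the side of the intermembrane space, had 70.1, 82.8 and 96.2 CPM in iKO, against 96.5, 113 and 150.0 CPM in Ctrl (log2 fold change -0.54, SE 0.11, adjusted p = 0.00107). For Ndufb5 and Ndufb6 the groups were clearly apart, while for Ndufb10 the highest iKO library came within 1 CPM of the lowest Ctrl library. Ndufb9 had the largest change of the arm, with 39.6, 46.5 and 55.0 CPM in iKO, against 58.7, 65.3 and 85.5 CPM in Ctrl (log2 fold change -0.55, SE 0.11, adjusted p = 0.00122). Other genes share exon bases with Ndufb6 (39.0%, Smim27), Ndufb9 (19.5%, Gm49356) and Ndufb5 (12.3%, Mrpl47), so part of these counts could belong to the neighbour. Ndufb3, Ndufb4, Ndufb11, Ndufb7 and Ndufb2 fell as well, with log2 fold changes of -0.51, -0.48, -0.42, -0.37 and -0.30. The call of Ndufb2, at 10.2 CPM in iKO and 12.6 CPM in Ctrl the least abundant of the arm, was lost in 8 of the 12 fits without 1 library (adjusted p up to 0.0922) and kept without Ctrl 3, iKO 2, iKO 4 or iKO 5. Ndufb8, named because it alone did not pass, had 44.6, 50.1 and 62.1 CPM in iKO, against 50.5, 58.9 and 69.3 CPM in Ctrl. Its groups overlapped over most of their range (log2 fold change -0.19, SE 0.09, adjusted p = 0.105), and it passed without iKO 6 (-0.25, adjusted p = 0.0273) and with upper quartile scaling (-0.26, adjusted p = 0.0308).

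Ndufa4 and Ndufa4l2 carry subunit names, but the Ndufa4 protein is found in complex IV, the cytochrome c oxidase, and Ndufa4l2 is a paralog known to be induced by hypoxia through HIF. Ndufa4 (chr6:11900292-11907497) was the most abundant Nduf transcript per kilobase in both groups, at 331 CPM per kilobase of main transcript in iKO and 549 in Ctrl. Its levels were 161, 204 and 246 CPM in iKO, against 285, 323 and 402 CPM in Ctrl. No iKO library reached Ctrl, and the log2 fold change of -0.73 (SE 0.11, adjusted p = 0.000126) was the largest fall of any subunit, about the same as that of Ndufa5. Ndufa4l2 was the single member with a fitted change above 0. It had 4.01, 20.3, 3.80, 5.60, 8.97 and 2.58 CPM in iKO 1 to 6, against 3.42, 3.46, 4.22, 4.78, 4.55 and 4.66 CPM in Ctrl 1 to 6. The highest and the lowest value of all 12 libraries were both in iKO. The log2 fold change of 0.85 (SE 0.43) did not pass (adjusted p = 0.128), dropped to 0.26 without iKO 2, and passed without iKO 6, at 1.03 (adjusted p = 0.0499). iKO 2 was also the library with the highest summed fibroblast markers, 14740 CPM, against 635 to 10190 CPM in the other iKO libraries and 2279 to 2603 CPM in Ctrl. Their part in the value was not tested. Of 14 other hypoxia-response genes, 5 rose and 1 fell, against 25.0% and 21.4% of all tested genes. The hypoxia counts moved with the setting. With pigment scaling they were 12 higher and 0 lower (median 0.56), where 8187 of all 16164 tested genes were higher (median 0.39). With the leukocyte score as covariate they were 0 higher and 2 lower (median -0.28). Egln3, a prolyl hydroxylase of HIF, stood at 15.2 ± 4.63 CPM in iKO and 5.33 ± 1.22 CPM in Ctrl (log2 fold change 1.51, adjusted p = 0.000214). Kdm3a, a histone demethylase, stood at 324 ± 28.1 CPM in iKO and 249 ± 19.3 CPM in Ctrl (log2 fold change 0.38, adjusted p = 0.000571).

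**Figure D3:**
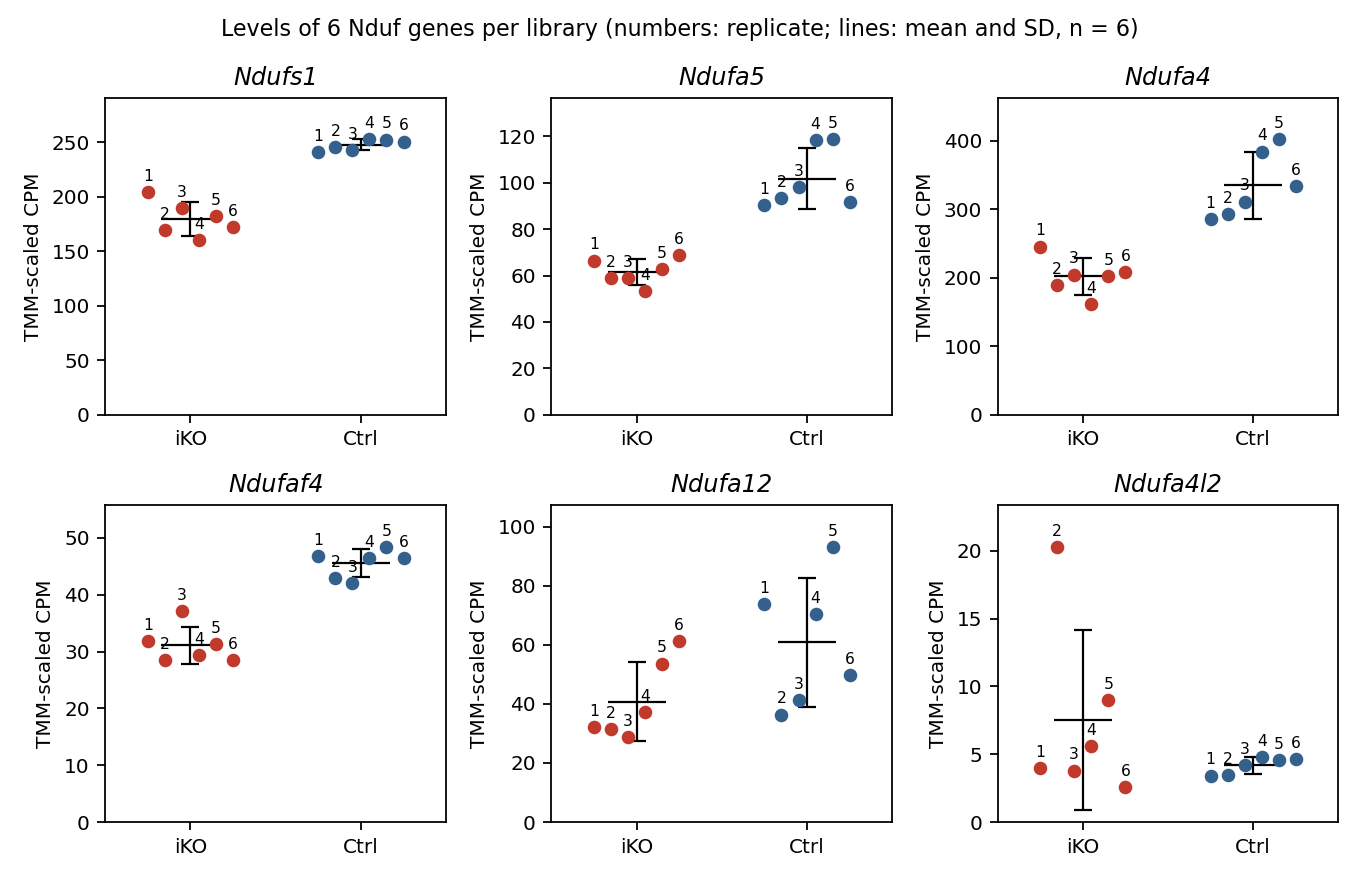
TMM-scaled CPM of 6 Nduf genes, 1 point per library with its replicate number, iKO left of Ctrl, and lines for mean and SD (n = 6). The groups are apart for Ndufs1, Ndufa5, Ndufa4 and Ndufaf4, while Ndufa12 spreads over 28.8 to 61.3 CPM in iKO and 36.4 to 93.2 CPM in Ctrl, and Ndufa4l2 reaches 20.3 CPM in iKO 2; scaled to pigment cell markers, Ndufa4 and Ndufa5 alone of the 6 are called lower, and Ndufa4l2 is called higher.

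The assembly factors fell to a like extent. Ndufaf4, which with Ndufaf3 helps to build the ubiquinone-binding module (chr4:24898083-24905001), had 28.5, 30.4 and 37.1 CPM in iKO, against 42.1, 46.5 and 48.5 CPM in Ctrl. All iKO libraries were below all Ctrl libraries, and the log2 fold change was -0.55 (SE 0.07, adjusted p = 6.63e-05). Ndufaf7, a methyltransferase of early assembly, had 26.5, 28.7 and 31.8 CPM in iKO, against 36.1, 38.9 and 45.7 CPM in Ctrl, also without overlap (log2 fold change -0.45, SE 0.07, adjusted p = 0.00021). Ndufaf2, the paralog of Ndufa12 that holds its place until late assembly, had 10.02, 13.7 and 16.2 CPM in iKO, against 15.7, 21.8 and 28.6 CPM in Ctrl. iKO 1 lay above Ctrl 1, with no other crossing, and the log2 fold change of -0.75 (SE 0.14, adjusted p = 0.00089) was the largest fall of the 46. Of the exon bases of Ndufaf2, 65.6% are shared with the long noncoding gene B230220B15Rik on the other strand, so its counts may include reads of that gene. With pigment scaling Ndufaf2 was the 1 assembly factor still called lower, at -0.41. Ndufaf1, a member of the assembly complex with Ecsit and Acad9, fell without overlap (log2 fold change -0.42). Ndufaf8 (the partner of Ndufaf5), Ndufaf6 and Ndufaf5, which hydroxylates an arginine of Ndufs7, fell with overlapping groups, at log2 fold changes of -0.41, -0.33 and -0.33. Ndufaf5 lost its call without Ctrl 4 or Ctrl 5 (adjusted p = 0.055 and 0.0576) and Ndufaf6 without Ctrl 4 (adjusted p = 0.0559). Ndufaf3, named because it did not pass, had 9.26, 11.3 and 15.2 CPM in iKO, against 10.8, 12.1 and 17.1 CPM in Ctrl. Its groups overlapped nearly in full (log2 fold change -0.12, SE 0.14, adjusted p = 0.524), and without Ctrl 5 the value was 0.012.

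Subunits and assembly factors differed in level more than in change. Per kilobase of main transcript, the median assembly factor stood at 11.6 CPM in iKO and 14.9 CPM in Ctrl, and the median subunit at 67.5 CPM in iKO and 92.2 CPM in Ctrl. Below the most abundant assembly factor, Ndufaf2 at 19.9 CPM per kilobase in iKO and 33.6 in Ctrl, lay 3 subunit genes in both groups: Ndufab1, Ndufa4l2 and Ndufb2, the first and the last of which have long main transcripts. Ndufa4 led the order by more than 2 times in each group, whereas the genes in the middle of the order stood close together. The fitted changes ranged from -0.73 to -0.19 over the 36 subunits other than Ndufa4 and Ndufa4l2 (SD 0.12 across genes), and from -0.75 to -0.12 over the 8 assembly factors (SD 0.18 across genes). For every 1000 CPM of subunit transcripts there were 47.3 to 53.4 CPM of assembly factor transcripts in iKO (median 50.8), against 48.1 to 54.0 CPM in Ctrl (median 51.8). These ratios overlapped almost entirely. No test was made over the members.

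Most other nuclear genes of oxidative phosphorylation fell too, while none of the mitochondrially encoded complex I genes was called in the main fit. All 4 complex II genes, 8 of 9 complex III genes, all 10 complex IV genes and all 15 tested ATP synthase genes fell, with medians of -0.35, -0.47, -0.45 and -0.46. Sdhd, a membrane anchor of complex II, stood at 145 ± 12.6 CPM in iKO and 186 ± 6.38 CPM in Ctrl, and Cyc1, the cytochrome c1 of complex III, at 217 ± 12.3 CPM in iKO and 283 ± 15 CPM in Ctrl. Cox6c, of complex IV, stood at 125 ± 11.1 CPM in iKO and 191 ± 27.5 CPM in Ctrl, and Atp5g1, of the proton-carrying ring of the ATP synthase, at 79.8 ± 5.49 CPM in iKO and 114 ± 13.5 CPM in Ctrl (SD, n = 6 each). Complex I is built from both genomes, and none of its 7 mitochondrially encoded subunits passed the test in either direction, with a median of 0.12. The 2 most abundant were mt-Nd1, at 1450 ± 273 CPM in iKO and 1330 ± 129 CPM in Ctrl (log2 fold change 0.12, SE 0.12, adjusted p = 0.406), and mt-Nd5, at 1070 ± 251 CPM in iKO and 843 ± 126 CPM in Ctrl (log2 fold change 0.34, SE 0.16, adjusted p = 0.0973). A difference in change between nuclear and mitochondrial subunits was not tested.

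Of 10 complex I assembly factors without an Nduf name, 6 fell, 0 rose and the median was -0.22. Tmem70 stood at 46.2 ± 4.29 CPM in iKO and 62.6 ± 4.27 CPM in Ctrl (log2 fold change -0.44, adjusted p = 0.000253), and Timmdc1, a factor of membrane arm assembly, at 28.0 ± 2.88 CPM in iKO and 37.9 ± 2.20 CPM in Ctrl (log2 fold change -0.44, adjusted p = 0.000399). Tmem126b, Nubpl, Acad9 and Ecsit fell with log2 fold changes of -0.33, -0.37, -0.23 and -0.19. Of 12 regulators of mitochondrial biogenesis, 5 fell and 1, the coactivator Pprc1, rose. Tfam, which packages and transcribes mitochondrial DNA, stood at 49.0 ± 6.21 CPM in iKO and 65.1 ± 2.53 CPM in Ctrl (log2 fold change -0.41, adjusted p = 0.000732), and Tfb2m, a mitochondrial transcription factor, at 20.0 ± 2.28 CPM in iKO and 25.5 ± 1.44 CPM in Ctrl (log2 fold change -0.35, adjusted p = 0.00357). Nrf1, whose letters are among those shown above, fell (log2 fold change -0.22), and Yy1 stood at -0.024 (adjusted p = 0.721). Outside mitochondria, 35 of 37 cytosolic ribosomal protein genes fell, with a median of -0.33. Rpl22 stood at 248 ± 15.6 CPM in iKO and 337 ± 48.7 CPM in Ctrl, and Rpl8 at 1100 ± 104 CPM in iKO and 1490 ± 203 CPM in Ctrl. With pigment scaling the medians of complexes II to IV and the ATP synthase lay at 0.0076, -0.11, -0.096 and -0.10, and that of the ribosomal proteins at 0.027. The mitochondrially encoded subunits lay at 0.51, with 5 of 7 called higher. Over all 16164 tested genes, the median with pigment scaling was 0.39, with 8187 genes called higher and 321 lower. On that scale the assembly factors without an Nduf name had 0 lower and 2 higher genes and a median of 0.15, and the biogenesis regulators 0 lower and 5 higher and a median of 0.22. With the leukocyte score as covariate 3 of these assembly factors and 0 of the regulators were lower.

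**Figure D4:**
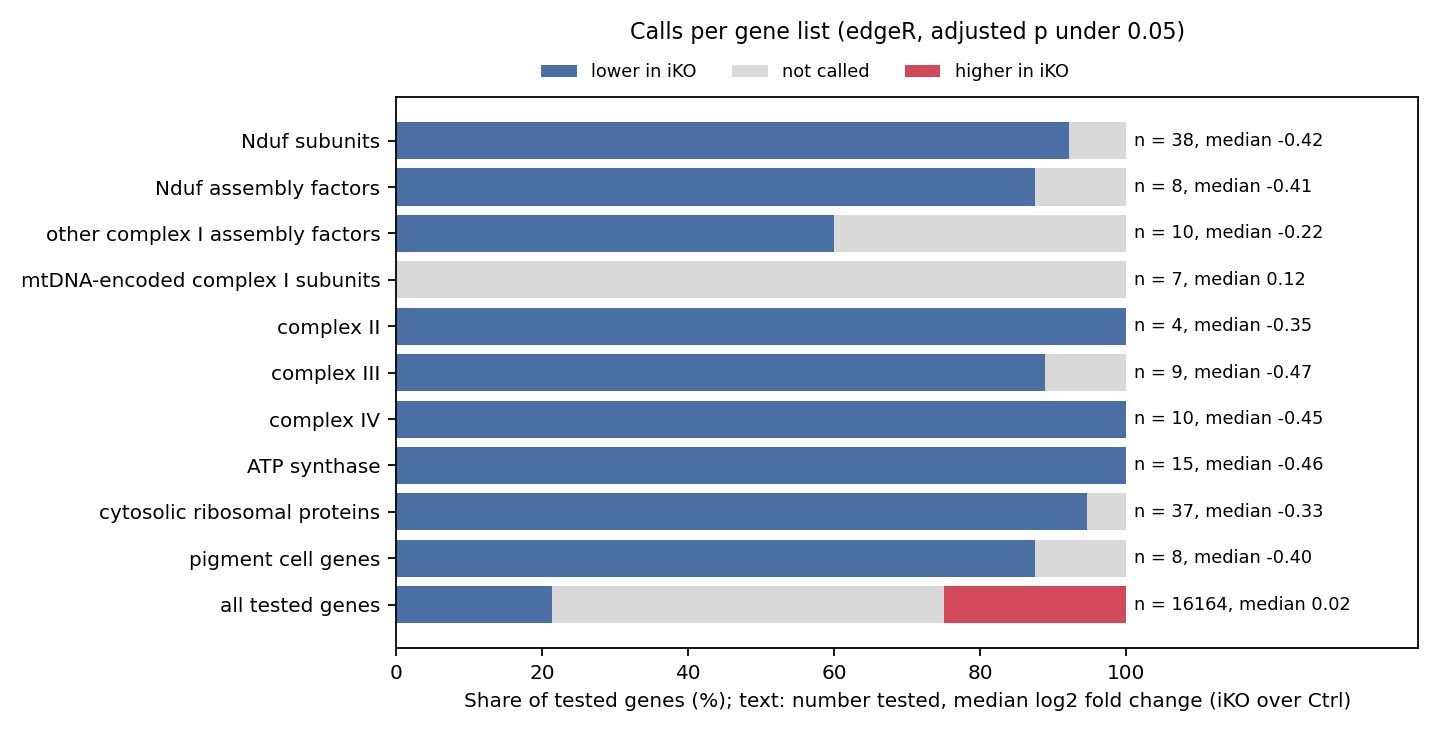
Share of tested genes called lower (blue), not called (grey) and higher (red) in iKO for the Nduf classes, the other respiratory complexes, ribosomal proteins, pigment cell markers and all tested genes, with the number tested and the median log2 fold change at the right. Of the subunits 35 of 38 are lower, and of the mitochondrially encoded subunits 0 of 7; scaled to pigment cell markers, 2 of the 38 subunits are lower and 1 is higher.

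Markers of the cells in the sorted material differed between the groups as the Nduf level did, and their part in it was not tested. Within a group, some libraries went with the Nduf level and others did not. Pigment markers ranged over only 22670 to 23060 CPM in Ctrl, where subunits ranged over 3409 to 4411 CPM, and Ctrl 5 was the highest Ctrl library in both leukocyte markers (226 CPM) and subunits. iKO 6, second in iKO both in leukocyte markers (1658 CPM) and in pigment markers (19270 CPM), had the highest subunit sum in iKO. iKO 4 had the most leukocyte markers (1971 CPM), the fewest pigment markers (15730 CPM) and the lowest subunit sum (2388 CPM). Of the 8 pigment cell markers 7 fell, and the median over all 8 was -0.40, close to that of the subunits. Their changes were uneven, at -0.46 for Tyr, -0.20 for Sox10 and -0.026 for Pmel (adjusted p = 0.811). Per 1000 CPM of pigment markers, subunit transcripts came to 128, 168, 156, 152, 161 and 159 CPM in iKO 1 to 6, against 150, 148, 157, 179, 194 and 155 CPM in Ctrl 1 to 6. On that scale the groups overlapped. iKO 1 had 187 CPM of leukocyte markers, 22570 CPM of pigment markers and a subunit sum of 2894 CPM. Macrophage markers were higher in iKO for 7 of 8 genes, with sums of 237 to 1972 CPM in iKO and 16.6 to 430.4 CPM in Ctrl. T cell markers were higher for 7 of 7 tested, with sums of 12.6 to 141 CPM in iKO and 3.72 to 8.06 CPM in Ctrl. So were keratinocyte markers for 6 of 6 and fibroblast markers for 2 of 8, and 3 of 6 muscle markers were higher too. Keratinocyte sums were 253.6 CPM in iKO 2, 7.82 to 21.6 CPM in the other iKO libraries and 3.09 to 5.12 CPM in Ctrl. Muscle sums were 59.7 CPM in iKO 2 and 54.5 CPM in iKO 5, 5.39 to 10.7 CPM in the other iKO libraries and 5.00 to 7.44 CPM in Ctrl. Of all tested genes, 25.0% were higher and 21.4% lower, so the fibroblast count stands at the general share. Of 8 endothelial markers, 3 were higher and 1, Egfl7, was lower (log2 fold change -0.73, adjusted p = 0.00248), and 0 of 3 tested erythroid markers passed. No leukocyte, T cell or macrophage marker was at 0 in any iKO library, where Ptprc had 538 to 10172 counts. In Ctrl, where Ptprc had 6 to 564 counts, 7 T cell markers, the leukocyte marker Cd52 and the macrophage marker Fcgr1 were at 0 counts in 1 to 4 libraries each. Without Ctrl 5 and iKO 1 together, 31 subunit and 5 assembly factor genes were lower, and without iKO 2 and iKO 3 together, 30 and 5. With a leukocyte score as covariate, which nearly coincides with the groups, 26 and 1 were lower, and the medians were -0.65 and -0.56.

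Transcript length moved with the calls as well. Among tested protein-coding genes with a mean of at least 10 CPM, the share called lower was 63.2% for main transcripts up to 1000 bases, 49.3% for those up to 2000, 32.7% for those up to 4000 and 14.5% for longer ones. Most Nduf transcripts are short, and the shares lower in the same classes were 95.7% of 23, 88.2% of 17, 100% of 4 and 1 of 1. The last 2 classes are too small to compare. The libraries of 1 group differed by length too. Across the 36 subunits other than Ndufa4 and Ndufa4l2, the ratio of Ctrl 5 to Ctrl 1 was larger for shorter transcripts (Spearman's rho -0.66, Pearson's r -0.69 with log length). The coefficient of variation over Ctrl libraries was likewise larger for shorter ones (rho -0.57), while the fitted change showed a weaker relation (rho 0.23). These are descriptions across genes that share libraries and are not independent. With the length trend of each library removed, an alternative added after the data were seen, 22 subunit and 4 assembly factor genes were lower, and their medians were -0.19 and -0.19. Several other lists shrank as well, to 6 of 9 complex III genes (median -0.18), 6 of 10 complex IV genes (median -0.15), 11 of 15 ATP synthase genes (median -0.19) and 11 of 37 ribosomal protein genes (median -0.077) lower, while all 4 complex II genes kept their call (median -0.21). Ndufa4, Ndufa5 and Ndufaf2 were the 3 members lower under both this and the pigment scaling.

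**Figure D5:**
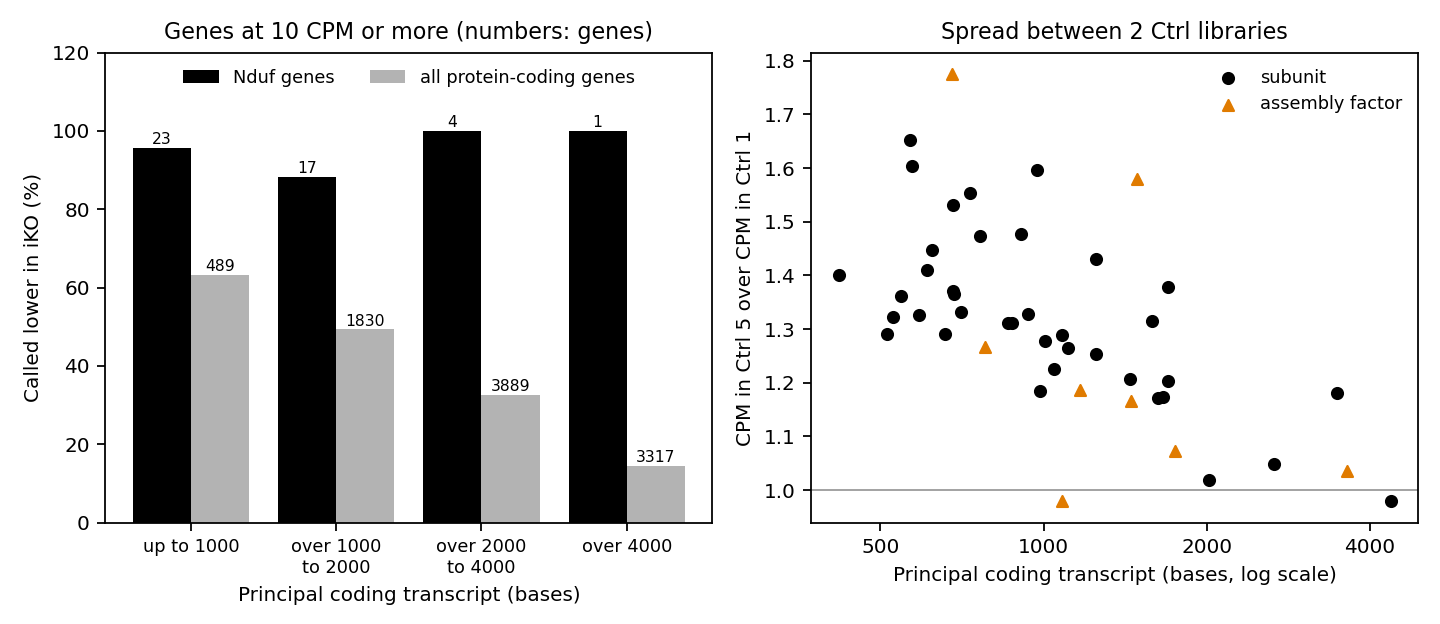
Left, share called lower in iKO among Nduf genes (black) and all protein-coding genes at 10 CPM or more (grey) by length of the main coding transcript, with gene numbers above the bars. Right, ratio of CPM in Ctrl 5 to Ctrl 1 for each Nduf gene against transcript length on a log scale; on the left the share of all genes is 63.2% for the shortest and 14.5% for the longest, and on the right shorter subunit transcripts have larger ratios. With the length trend removed 22 of 38 subunits are lower, and with pigment scaling 2.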

How the data were processed

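The authors deposited 1 table of raw read counts per gene for the 12 libraries. Per the labels' protocols, mRNA was taken with poly-T beads and the libraries carry no strand. Per the submitters' processing notes, reads were placed on mm10. The aligner and counter were not given in the sources used here. The labels call the source single cell, but the table has 1 column per tumour, and all libraries share 1 batch label. Genes were filtered with edgeR's filterByExpr (minimum count 10), which kept 99.9% of counts, scaled by TMM and tested with the quasi-likelihood test of edgeR 4.0.16 in R 4.3.3 over 16164 genes, iKO over Ctrl, with Benjamini-Hochberg adjustment. limma 3.58.1 and DESeq2 1.42.0 served as alternatives. The procedure was tested on simulated data. Totals were 29810000 to 45830000 counts per library. Counting error is larger for members with few counts, such as Ndufa4l2 with 87 counts in iKO 6 and Ndufaf6 with 226 in iKO 4. Main transcripts and overlaps came from GENCODE, which holds all 46 members, 42 with the deposited start and end and 42 with the deposited length. 7 members share over 10% of exon bases with another gene, and 13 share over 10% of their 50-base words. Markers, pathway lists and members were chosen with earlier results of these data known. Described in full are, per role, up to 3 called members with the smallest p and the largest change, and in each other list the 2 with the smallest p or, where none passed, the highest level. Of the 46 members 1 is counted in all summaries but not reported by itself here. Same-numbered libraries were compared to see whether the numbers pair them. No 2 libraries of a group agreed within sampling noise.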

Additional observations from a re-analysis of the deposited data

Results flagged for a closer look

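A few single libraries lay far from the other 5 of their group, by Dixon's criterion at 95%. Of the 96 groups of 6 values examined, chance alone would mark about 1 in 20, and 5 were marked. Ndufa10 had 97.6 CPM in iKO 4, against 115 to 123 CPM in the other iKO libraries. Assembly factors summed to 125 CPM in iKO 4, against 139 to 145 CPM in the other iKO libraries. Ndufa4l2 had 20.3 CPM in iKO 2, against 2.58 to 8.97 CPM in the other iKO libraries. Ndufaf1 had 23.2 CPM in Ctrl 5, against 18.8 to 20.3 CPM in the other Ctrl libraries. Ndufaf3 had 17.1 CPM in Ctrl 5, against 10.8 to 12.5 CPM in the other Ctrl libraries.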

How the results depend on the processing

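Scaling by relative log expression, the upper quartile or library totals, other filters, DESeq2 and limma voom left 34 to 36 subunit and 7 assembly factor genes lower. The median of all tested genes was -0.041 with upper quartile scaling and -0.0059 with library totals. Leaving out 1 library at a time gave 31 to 36 lower and 0 to 1 higher subunit genes (1 without iKO 6) and 5 to 7 lower assembly factors. With the leukocyte score as covariate, 26 subunit and 1 assembly factor genes were lower (medians -0.65 and -0.56), and 1023 genes were higher and 1079 lower in all. With pigment scaling, 8187 genes were higher and 321 lower in all (median 0.39), 2 subunit genes lower and 1 higher (median -0.064) and 1 assembly factor lower (median -0.059), and changes above 0 included Ndufa9 0.028, Ndufa10 0.049, Ndufv1 0.13, Ndufs3 0.15, Ndufa7 0.12, Ndufb2 0.083, Ndufaf5 0.026 and Ndufaf6 0.021. Removing the length trend left 22 subunits and 4 assembly factors lower (medians -0.19 and -0.19), with Ndufs3 at 0.022 and Ndufa7 at 0.095. The cause of these shifts was not tested. With the replicate number as a block, 33 subunit and 7 assembly factor genes were lower. The correlations of same-numbered libraries ran from -0.129 to 0.249, so the numbers were not taken to pair them.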
